A study of Caenorhabditis elegans with 22 samples.

Results

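The loci described here are the long intergenic noncoding RNA genes of Caenorhabditis elegans whose name is linc followed by a number. They were taken by that name from the deposited FPKM tables (fragments scaled by transcript length and by the mapped fragments of the library) and joined by gene identifier to the small RNA tables. This gave 141 lincs that are among the 35913 gene identifiers of the total RNA table, and linc-4, which has no entry there. All are among the 46780 identifiers of the small RNA tables. For the triple mutant the authors deposited small RNA of a selection of genes only, and that selection holds 3 lincs.

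Whole young adult hermaphrodites with embryos were collected 70 h after L1 arrest, after 71 h of growth at 20 °C. Small RNA and total RNA were each measured in the triple mutant adr-1 eri-6;adr-2, in single eri-6 and double adr-1;adr-2 mutants, and in wild type, with 2 libraries per genotype. The triple mutant was strain GR1744, which carries the alleles gv6 of adr-1, mg379 of eri-6 and gv42 of adr-2, and eri-6 was strain GR1814 with mg379 alone. Small RNA of adr-1;adr-2 was taken from strain BB4 (gv6 and gv42) for replicate 1 and from strain BB21 (tm668 and ok735) for replicate 2. For total RNA of that genotype the labels give strain BB4 with tm668 and ok735, a pairing that differs from the small RNA labels. Wild-type small RNA came from GR1831, which carries the transgene mgIs30, and from N2, and wild-type total RNA came from N2. Polyadenylated RNA (mRNA) was measured in 1 library per condition, in GR1744 and in N2, on HT115 bacteria for drh-1 RNAi, nrde-3 RNAi or the L4440 control. Both the wild-type group and the adr-1;adr-2 group thus mix strains in small RNA, and the labels do not say whether other replicates were separate cultures. The spread between replicates may therefore be partly technical.

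Long intergenic noncoding RNAs are transcripts from between protein-coding genes that carry no long open reading frame, and most of those in worms have no known function. The ERGO-1 pathway is a branch of endogenous RNA interference in which an RNA-dependent RNA polymerase, Dicer and the helicase ERI-6/7 make primary small interfering RNAs (siRNAs) on a limited set of transcripts. These are amplified into secondary siRNAs, some of which NRDE-3 carries into the nucleus. The ADAR proteins ADR-1 and ADR-2 act on double-stranded RNA, where ADR-2 converts adenosine to inosine. DRH-1, a worm relative of mammalian RIG-I, takes part in antiviral RNA interference.

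As a check on the labels, eri-6 itself had 5.73 FPKM in adr-1 eri-6;adr-2, 5.35 FPKM in eri-6, 10.1 FPKM in adr-1;adr-2 and 17.8 FPKM in wild type in total RNA. The gene nrde-3 had 8.08 FPKM on nrde-3 RNAi against 15.4 FPKM on control RNAi in the triple mutant, and 5.26 FPKM against 5.76 FPKM in wild type. In the triple mutant library labelled drh-1 RNAi, nrde-3 was lower too, at 5.47 FPKM against 14.15 FPKM on control RNAi. The control value differs because each RNAi target was scaled on its own. In wild type the library labelled drh-1 RNAi had 4.43 FPKM of nrde-3, also below control RNAi. Lower nrde-3 was thus not specific to the nrde-3 RNAi libraries. The gene drh-1 had 65.4 FPKM in the triple mutant library labelled drh-1 RNAi, against 19.02 FPKM on control RNAi. In wild type, the library labelled drh-1 RNAi had 32.3 FPKM of drh-1 against 14.3 FPKM on control RNAi. In both genotypes drh-1 FPKM was thus higher, not lower, in the library labelled drh-1 RNAi, and the cause was not tested. Small RNA depth was 29683818 and 10904105 reads in eri-6, 32303754 and 15417839 reads in adr-1;adr-2, and 25690179 and 12446099 reads in wild type. The depth of the other libraries is not known. Across genes, replicates 1 and 2 differed in the same direction in all 3 of these genotypes, with correlations of their differences between 0.597 and 0.702 over 23834 genes. Wild type stood apart in total RNA, where FPKM summed to 3852071 in adr-1 eri-6;adr-2, 8045086 in eri-6 and 3926055 in adr-1;adr-2, against 22079747 for the wild-type column.

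Small RNA was unevenly spread over the lincs in wild type. Values below are normalised reads per gene, in which the authors scaled each library by 1 factor. The wild-type mean was over 100 for 27 lincs, its median over all lincs was 5.38, and 9 lincs had no read in either wild-type library. The 5 lincs with the most small RNA held 83.8% of the wild-type linc signal, and linc-29 alone held 46.8%. All lincs of this set together took 0.484% of the recovered wild-type reads. Lincs without an FPKM entry are left out of these shares, among them linc-22, at 85158 and 85268 normalised reads in wild type.

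Most lincs kept their small RNA in eri-6, and 12 lost nearly all of it. A linc was called nearly silent when both wild-type libraries had at least 20 normalised reads and every eri-6 library had at most 1/16 of the lower wild-type library. Of the 41 lincs that reached 20 in both wild-type libraries, 12 met this rule, which is 29.3%. Over all 13824 genes that reached 20 in both, the same rule was met by 91 genes, or 0.658%. By annotated gene type, it was met by 34 of 8900 protein-coding genes (0.382%) and 6 of 2898 piRNA genes (0.207%). Small classes had shares near or above that of the lincs, with 6 of 19 other lncRNA genes (31.6%) and 2 of 5 miRNA genes (40%). The other lncRNA genes are not a class apart, since they include lincs without an FPKM entry. Of such lincs, linc-22, linc-59, linc-15, linc-25 and linc-111 met the rule. The rule was also met by 7 of 457 other ncRNA genes (1.53%), 1 of 29 antisense RNA genes (3.45%) and 22 of the 1259 genes with no annotated type (1.75%). The ERGO-1 target list, 23 protein-coding genes and pseudogenes known to give rise to these siRNAs, had 15 members nearly silent. The rule used the eri-6 and wild-type small RNA values, so these are descriptions.

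**Figure D1:**
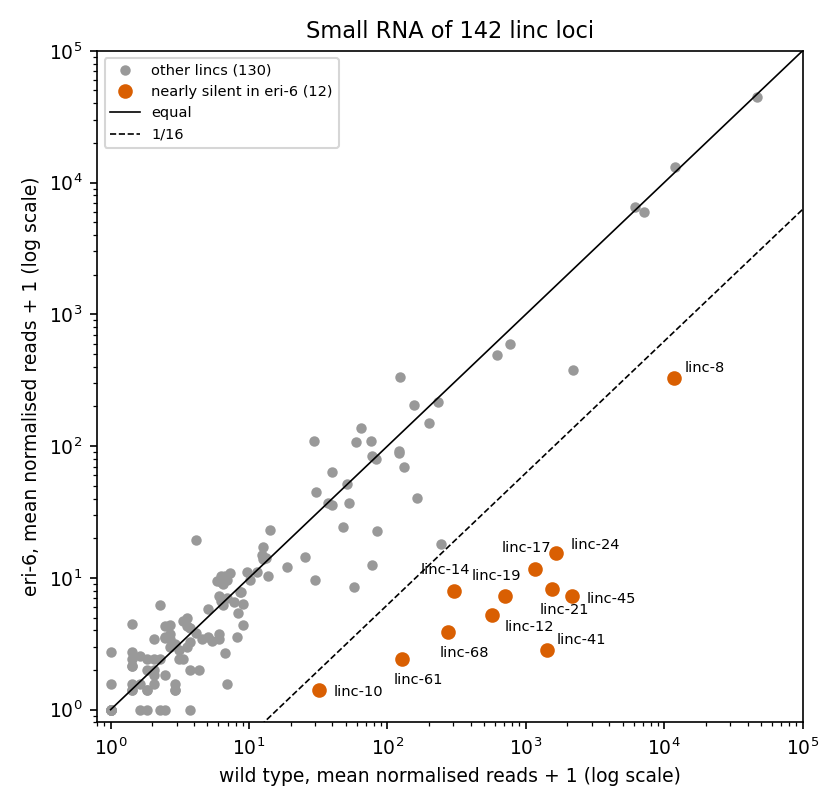
Mean normalised small RNA reads plus 1 in eri-6 (vertical axis) and in wild type (horizontal axis), both on log scales, with 1 point per linc and 2 libraries behind each mean. The 12 nearly silent lincs lie below the 1/16 line, and of the 5 lincs with the most wild-type small RNA, all but linc-8 lie near the line of equal values.

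The 12 nearly silent lincs include 3 pairs of close neighbours. All coordinates are those of build WBcel235. The first pair lies on chromosome IV, where linc-41 (WBGene00219689, IV:4241224-4241765) and linc-21 (WBGene00219688, IV:4242086-4242466) are 320 bp apart. For linc-41 the normalised reads were 2.52 and 1.16 in eri-6, against 1272 and 1548 in wild type. For linc-21 they were 4.20 and 10.398 in eri-6, against 1127 and 1953 in wild type. Both lincs were far below wild type in each eri-6 library, with no overlap between the groups.

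The second pair is on chromosome III, where linc-19 (WBGene00219660, III:3150222-3151352) and linc-45 (WBGene00219661, III:3151809-3152607) are 456 bp apart. In eri-6, linc-45 had 6.72 and 5.78 normalised reads, against 1854 and 2459 in wild type. Its neighbour linc-19 had the same 6.72 and 5.78 in eri-6, against 643 and 780.3 in wild type. The eri-6 values of this pair were alike although linc-45 was the higher of the pair in both wild-type libraries.

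The third pair is on chromosome II, where linc-17 (WBGene00219755, II:3596226-3596812) and linc-68 (WBGene00219756, II:3597516-3597914) are 703 bp apart. Normalised reads of linc-17 were 4.20 and 17.3 in eri-6 and 912 and 1419.8 in wild type. No read of linc-68 was found in eri-6 replicate 1, where a count of 0 allows up to 2.52 normalised reads, and replicate 2 had 5.78, against 105 and 443 in wild type. Among all lincs there were 4 neighbouring pairs within 5000 bp, of which these were 3. The other joined linc-41 to linc-26, 2815 bp away, which had no small RNA read in any of the 6 libraries.

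The other 6 nearly silent lincs lie apart from each other. The one with the most small RNA was linc-8 (WBGene00219707, II:2501838-2503802), with 213 and 442 normalised reads in eri-6 against 11332 and 12355 in wild type. It kept more small RNA in eri-6 than any other of the 12, at 2.77% of the wild-type mean. The ncRNA genes F59H5.4 and F59H5.5 overlap linc-8. For linc-24 (WBGene00219771, III:1370495-1371568) the values were 6.72 and 22.0 in eri-6 and 1356 and 1932 in wild type. A piRNA gene, 21ur-9823, lies inside linc-24 and had no read in either library of eri-6, against 363 and 357 in wild type, and reads of overlapping genes cannot be told apart here. For linc-12 (WBGene00219687, II:2681408-2681658) the values were 5.04 and 3.47 in eri-6 against 506 and 627 in wild type.

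Lower in the range, linc-14 (WBGene00195060, V:17539172-17539475) had 5.88 and 8.09 normalised reads in eri-6 against 350.1 and 254 in wild type. The values of linc-61 (WBGene00195170, V:16043099-16043761) were 1.68 and 1.16 in eri-6 and 185 and 68.5 in wild type. At the low end, linc-10 (WBGene00219690, II:3313083-3313507), which overlaps the protein-coding gene F39E9.6, had 0.84 and 0 in eri-6 against 24.5 and 38.1 in wild type. The lowest eri-6 values rest on few reads. Over both libraries there were 4 eri-6 reads of linc-41, which gives 0.141% of wild type with an exact (Clopper-Pearson) 95% interval of 0.0383% to 0.361%. There were 3 eri-6 reads of linc-61, at 1.05% of wild type with an interval of 0.216% to 3.11%. A single eri-6 read of linc-10 gives 1.63% with an interval of 0.0405% to 9.42%. These intervals and limits cover counting error only.

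Near the 1/16 limit, linc-68 was the closest inside, with its higher eri-6 library 18.3 times below its lower wild-type library, followed by linc-8 at 25.6 times. The closest outside was linc-46 (WBGene00219748, II:1990692-1991487), at 12.9 times, with 15.95 and 18.5 normalised reads in eri-6 against 239 and 246 in wild type. The 12 lincs held 21.7% of the linc signal in wild type and 0.524% of it in eri-6.

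A second rule asked for a gap of 4-fold or more, on values plus 1, between each mutant library and each wild-type library, among genes averaging 10 or more. In eri-6, 14 of 55 lincs (25.5%) were lower by this rule, against 0.672% of the 23380 genes measured. These were the 12 nearly silent lincs, linc-46 and linc-42 (WBGene00219718, III:2936109-2937002), which had 9.24 and 13.9 in eri-6 against 77.6 and 76.1 in wild type. No linc was higher by this rule, against 0.0984% of all genes, and 1 was without eri-6 replicate 1 or without wild-type replicate 2. Just short of it lay linc-16 (WBGene00219728, II:1820242-1820946), at 312 and 437 normalised reads in eri-6 against 1748 and 2661 in wild type. It overlaps fbxa-3, fbxc-19 and a piRNA gene.

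With 2 libraries per genotype, no linc passed limma's moderated test in the eri-6 comparison with Benjamini-Hochberg adjustment over all 23380 genes, in which 0.0% of genes were called. The smallest adjusted p from limma was 0.0680, shared by linc-41 at a log2 fold of −8.99 ± 0.81 (SE) and linc-45 at −8.21 ± 0.74, both lower in 2 of 2 eri-6 libraries. At an unadjusted p under 0.05 there were 14 lincs of 55 and 237 genes of 23380. Of other tools on the recovered reads, edgeR called 0 of 55 lincs and 0 of 23380 genes. DESeq2 called 12 of 43 lincs lower, beside 125 lower and 15 higher of 19300 genes. Those 12 include linc-46 (DESeq2 adjusted p = 0.0103) and not linc-10. With limma on genes averaging 50 or more, 8 of 36 lincs were called lower, beside 68 lower and 4 higher of 13880 genes. Leaving out 1 library also changed the limma count, to 7 without eri-6 replicate 1, 9 without eri-6 replicate 2, 9 without wild-type replicate 1 and 8 without wild-type replicate 2. The median log2 fold over the 55 lincs was −0.44, beside 0.01 over all genes. Over the 43 that were not nearly silent it was −0.04.

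**Figure D2:**
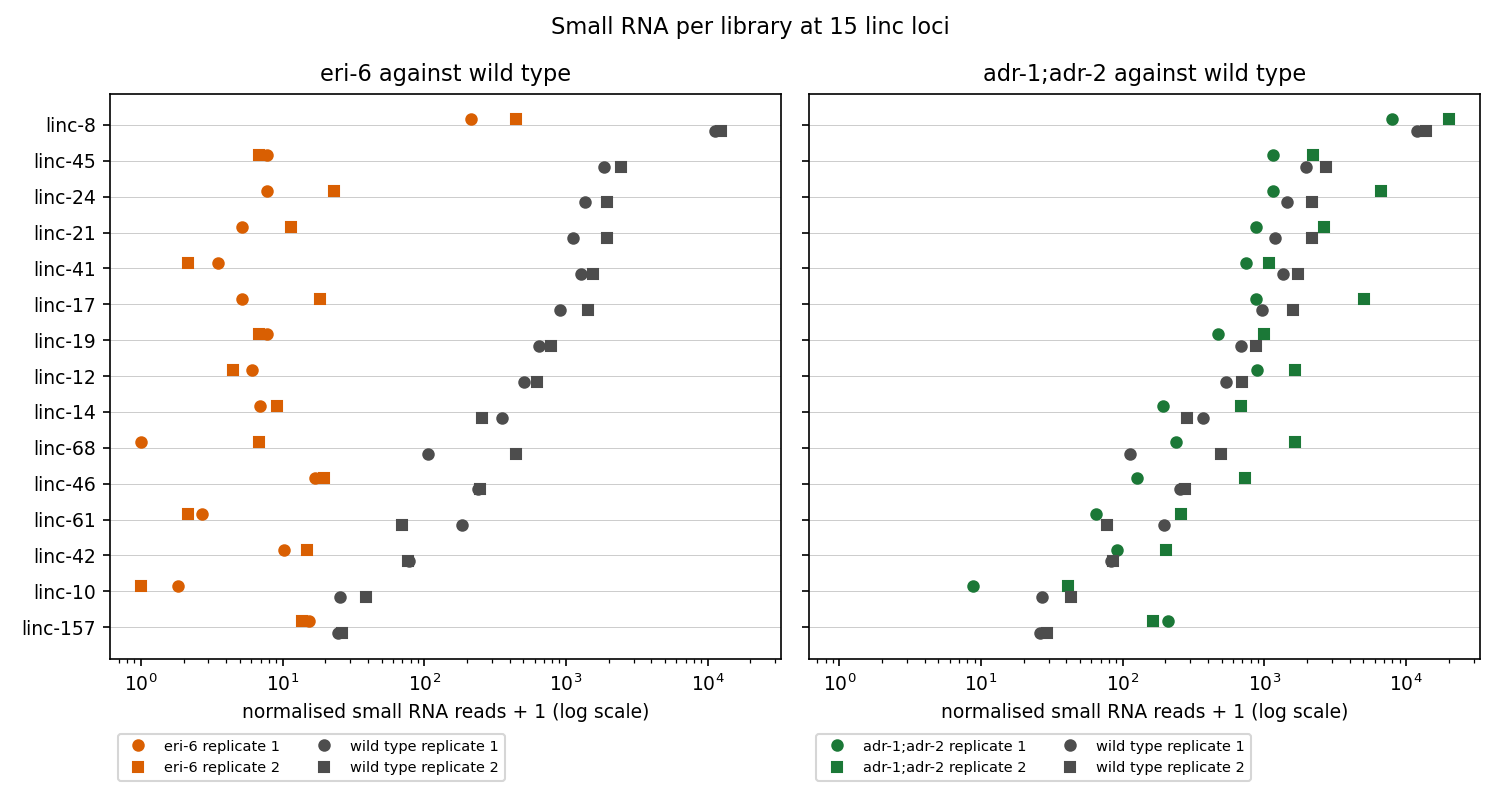
Normalised small RNA reads plus 1 (log scale) in each library for the 12 nearly silent lincs, linc-46, linc-42 and linc-157, with eri-6 and wild type on the left and adr-1;adr-2 and wild type on the right, each in that table's own scaling; circles are replicate 1 and squares replicate 2. The eri-6 values of the first 14 lie at least 4-fold below wild type, and the adr-1;adr-2 values of the same lincs lie within 4-fold of the wild-type library of the same number.

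Of the 5 lincs with the most small RNA in wild type, 4 kept between 82.5% and 109% of it in eri-6. Among the 11 highest these 4 stood apart, since 6 of the 11 were nearly silent and linc-16 kept 16.97%. At linc-29 (WBGene00189951, IV:6354024-6357243) the normalised reads were 28482 and 61149 in eri-6 and 25147 and 68739.7 in wild type, so the groups overlapped. The values of linc-63 (WBGene00219725, I:3870642-3871267), the densest locus at 19101 wild-type reads per kb of span, were 10025 and 15983 in eri-6 and 6751 and 17164 in wild type. For linc-11 (WBGene00219758, II:3373169-3374185), inside which 2 piRNA genes are annotated, they were 4644 and 7207 in eri-6 and 5202 and 9170.0 in wild type. The fifth, besides linc-8, was linc-7 (WBGene00219609, X:16002599-16003728), with 4733 and 8215 in eri-6 and 3776 and 8571 in wild type. Of these 5, linc-8 alone was nearly silent.

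Position and span, which the rule did not use, were set beside those of the other lincs. Spans of the nearly silent lincs ran between 251 and 1965 bp with a median of 564.5 bp, while the other 29 lincs with at least 20 in both wild-type libraries ran between 125 and 6035 bp with a median of 1130 bp. Small RNA per kb of span, which is built from the wild-type values that the rule used, had a wild-type median of 1759 reads over the 12 and of 138 reads over the 29, and both ranges were wide, at 73.6 to 6027 and 8.26 to 19101. By chromosome, 5 of the 12 lay on II, 3 on III, 2 on IV and 2 on V, and none on I or X. Of the other 29, 6 lay on I, 6 on II, 4 on III, 3 on IV, 5 on V and 5 on X. Another annotated gene overlapped 3 of the 12, a protein-coding one in 1 case, while 9 of the 29 overlapped another gene and 6 a protein-coding gene.

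In adr-1;adr-2 the small RNA of these lincs stayed much nearer to wild type than in eri-6. Of the 58 lincs averaging 10 or more in the adr-1;adr-2 table, none was 4-fold lower than wild type, against 0.0751% of 23975 genes. The lowest share among the 12 was 59.3% of the wild-type mean, at linc-41, with 742 and 1079 normalised reads in adr-1;adr-2 against 1344 and 1725 in wild type in that table's scaling. The highest was 312% at linc-68, with 235 and 1655 in adr-1;adr-2 against 111 and 494 in wild type. The 2 adr-1;adr-2 libraries differed, and strain cannot be told apart here from replicate number or from the wild-type strain set beside it. The labels do not say that numbers pair libraries. Set against the wild-type library of the same number, replicate 1 (BB4) was higher at 2 of the 12 lincs with a median log2 ratio of −0.56, and replicate 2 (BB21) was higher at 9 with a median of 0.90. Over all genes measured these medians were −0.25 and 0.01. Over the 23 ERGO-1 targets they were −0.50 and 0.53. The largest values in replicate 2 included linc-24 at 6639 against 1142 in replicate 1, and linc-17 at 5040.1 against 865.

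A single linc was 4-fold higher in adr-1;adr-2, which is 1.72% of 58, against 0.617% of all genes. It was linc-157 (WBGene00219626, IV:9060779-9063687), with 208 and 163 normalised reads in adr-1;adr-2 against 25.0 and 28.3 in wild type. In eri-6 the same linc had 14.3 and 12.7 against 23.6 and 25.4 in wild type. No linc passed limma's test for adr-1;adr-2, with a smallest limma adjusted p among lincs of 1.00, and 0.0% of the 23975 genes were called. Without adr-1;adr-2 replicate 1 the 4-fold rule found 4 higher lincs, and without wild-type replicate 1 it found 2. It found 1 lower linc without adr-1;adr-2 replicate 2 and without either wild-type library. The shares of all genes with 1 library left out are not given here, so these counts have no background. At an unadjusted p under 0.05 in limma there were 2 lincs of 58 and 324 genes of 23975. Both edgeR and DESeq2 called 0 lincs. The median log2 fold over the 58 lincs was −0.07, beside −0.05 over all genes.

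Set directly against adr-1;adr-2 in a joint fit of the 6 libraries, eri-6 had less small RNA at 5 lincs by limma with adjustment over 23834 genes. Over all genes, 0.0965% were lower and 0.0042% higher in this fit. The 5 were linc-41 at a log2 fold of −8.33 (limma adjusted p = 0.0317), linc-12 at −7.83 (0.0317), linc-45 at −7.75 (0.0317), linc-21 at −7.59 (0.0387) and linc-19 at −6.53 (0.0320). All 5 were lower in 2 of 2 eri-6 libraries than in either adr-1;adr-2 library. By the 4-fold rule, 15 lincs were lower in eri-6 than in adr-1;adr-2, against 1.31% of the 23607 genes measured. They were the 14 that were 4-fold lower than wild type, and linc-157. None was higher, against 0.161% of genes.

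In the triple mutant, small RNA values are known only for the 3 lincs of the authors' selection. In that table's scaling, linc-17 had 3.17 and 2.24 normalised reads in adr-1 eri-6;adr-2 against 1130.0 and 1871 in wild type. The values of linc-41 were 1.59 and 1.12 normalised reads for the triple mutant, against 1576 and 2040 in wild type. Both were at a few reads in every triple mutant library, as in eri-6. By contrast linc-169 (WBGene00219697, II:7371784-7372735) had higher values, 215 and 530 for the triple mutant against 81.5 and 115 in wild type. It overlaps the protein-coding gene mtch-1. Outside that selection linc-169 had 58.8 and 109 in eri-6 against 65.8 and 87.6 in wild type, and 106 and 892 in adr-1;adr-2 against 69.5 and 97.6 in wild type. The selection was made on these libraries, so these 3 are not independent evidence of a direction.

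Transcripts of the nearly silent lincs were next read from total RNA, which the rule did not use. The authors deposited 1 FPKM value per genotype over both replicates, with a lower and an upper bound whose level is not given. A linc was called higher or lower when its bounds and those of wild type did not overlap, among loci of at least 1 FPKM in either genotype. In eri-6, 5 of the 12 nearly silent lincs were higher and none lower, while of the 48 other lincs measured 1 was higher and 9 were lower. Over all 11308 genes, 12.6% were higher and 7.39% lower. Over all 60 lincs, 6 (10%) were higher and 9 (15%) lower. The median log2 ratio of FPKM plus 1 was 1.58 over the 12, −0.57 over the other 48, and 0.12 over all genes.

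The pair on chromosome IV was higher in eri-6. For linc-41, total RNA was 5.81 FPKM in adr-1 eri-6;adr-2 (bounds 2.48 to 9.14), 12.3 FPKM in eri-6 (6.89 to 17.7), 0.608 FPKM in adr-1;adr-2 (0 to 1.76) and 0.389 FPKM in wild type (0 to 1.02). The bounds of both eri-6 genotypes lay above those of wild type. For linc-21 the values were 52.1 FPKM in adr-1 eri-6;adr-2 (30.9 to 73.2), 164 FPKM in eri-6 (115 to 214), 7.37 FPKM in adr-1;adr-2 (0.201 to 14.5) and 36.1 FPKM in wild type (18.9 to 53.3). Here eri-6 lay above every other genotype and adr-1;adr-2 lay below every other.

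Of the chromosome III pair, linc-45 had 5.72 FPKM in adr-1 eri-6;adr-2 (1.93 to 9.51), 20.2 FPKM in eri-6 (12.1 to 28.2), 0.655 FPKM in adr-1;adr-2 (0 to 1.56) and 4.22 FPKM in wild type (0.667 to 7.78). Its neighbour linc-19 had 2.08 FPKM in adr-1 eri-6;adr-2, 6.74 FPKM in eri-6, 0.625 FPKM in adr-1;adr-2 and 1.77 FPKM in wild type. Both were higher in eri-6 than in wild type, and neither was higher in the triple mutant than in wild type. Of the chromosome II pair, linc-17 had 18.4 FPKM in adr-1 eri-6;adr-2 (10.5 to 26.4), 30.0 FPKM in eri-6 (18.9 to 41.0), 1.21 FPKM in adr-1;adr-2 (0 to 3.15) and 2.75 FPKM in wild type (0 to 5.71). Its neighbour linc-68 had 3.40 FPKM in adr-1 eri-6;adr-2, 7.29 FPKM in eri-6, 0.968 FPKM in adr-1;adr-2 and 3.86 FPKM in wild type, with overlapping bounds throughout.

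**Figure D3:**
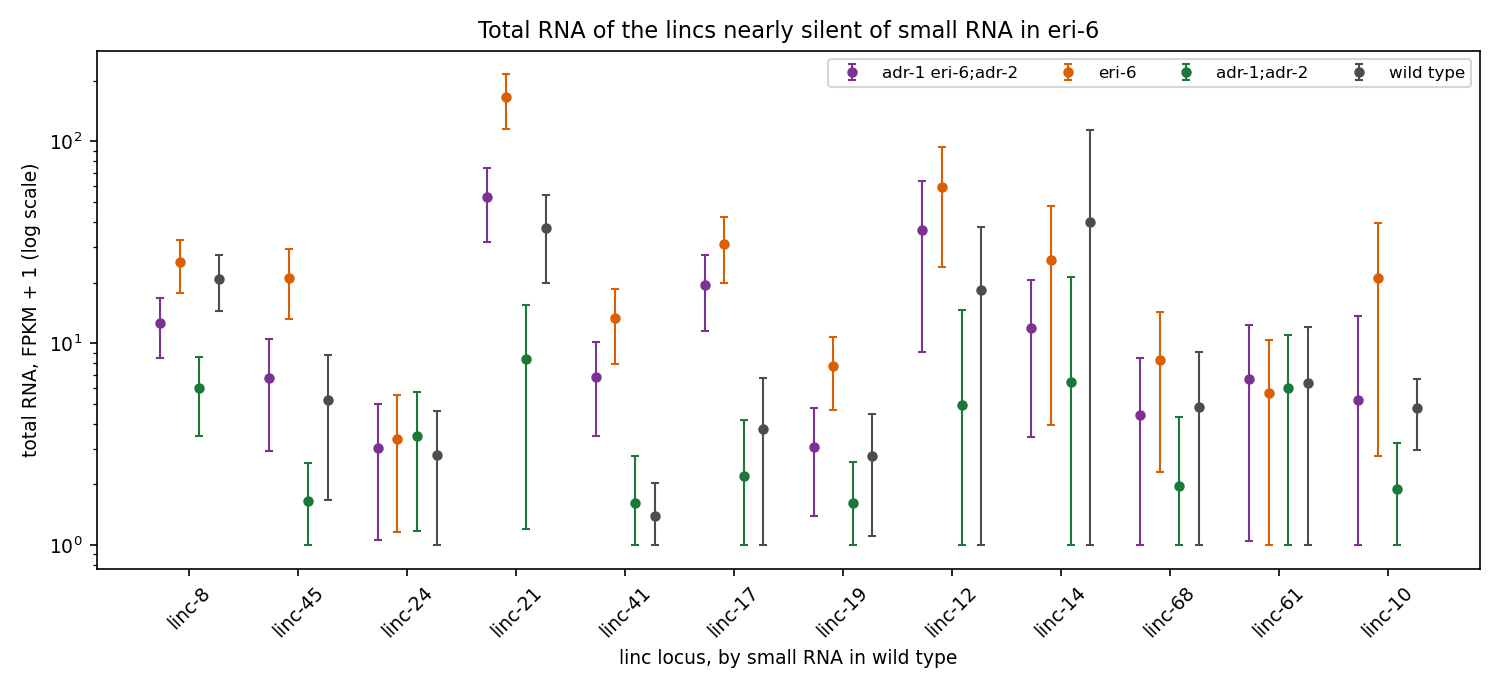
Total RNA of the 12 nearly silent lincs as FPKM plus 1 (log scale), with 1 deposited value per genotype; bars are the bounds the authors deposited, whose level is not given. The eri-6 bounds lie above those of wild type at linc-45, linc-21, linc-41, linc-17 and linc-19.

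The 6 lone nearly silent lincs were not called in eri-6. Their total RNA values in eri-6 and wild type were 58.2 and 17.3 FPKM for linc-12, 20.0 and 3.79 FPKM for linc-10, and 24.2 and 19.9 FPKM for linc-8. For linc-24 they were 2.34 and 1.79 FPKM, for linc-61 4.64 and 5.37 FPKM, and for linc-14 25.0 and 38.8 FPKM. The first 2 had higher values in eri-6 and wide bounds, 22.9 to 93.4 against 0 to 36.9 for linc-12 and 1.77 to 38.3 against 1.95 to 5.64 for linc-10. Near-complete loss of small RNA was thus found both with and without a called difference in total RNA. Over the 32 lincs with at least 20 small RNA reads in both wild-type libraries and at least 1 FPKM, the small RNA and total RNA changes in eri-6 had a Spearman rho of −0.525. This is across loci, some of them neighbours, and is a description.

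In adr-1;adr-2, lincs were more often lower than higher in total RNA. Of 57 measured, 16 (28.1%) were lower and 2 (3.51%) higher, against 14.8% and 21.1% of 11560 genes. The median log2 ratio over the lincs was −1.15, beside 0.13 over all genes. Of the 11 nearly silent lincs measured, 2 were lower and none higher: linc-21, given above, and linc-8, at 5.02 FPKM in adr-1;adr-2 (2.48 to 7.55) against 19.9 FPKM in wild type (13.4 to 26.4). Their median was −1.34 and that of the other 46 was −1.07, so the nearly silent lincs and the others had similar medians in this genotype.

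In adr-1 eri-6;adr-2, 18 of 58 lincs (31%) were lower and 3 (5.17%) higher, against 18.4% and 21.6% of 11425 genes. The median log2 ratio over the lincs was −0.69, beside 0.08 over all genes. Over the 12 nearly silent lincs it was 0.13, with linc-41 and linc-17 higher and none lower, and over the other 46 it was −0.89. Set directly against eri-6, the triple mutant was lower at 7 of 55 lincs, against 13.1% of 11496 genes, and higher at 1, against 9.87%. The 7 include linc-21, linc-45 and linc-8, the last at 11.63 FPKM in adr-1 eri-6;adr-2 (7.47 to 15.8) against 24.2 FPKM in eri-6 (16.8 to 31.6). Set against adr-1;adr-2, the triple mutant was higher at 6 of 54 lincs, against 3.01% of 11436 genes, and lower at 3, against 4.36%. Nearly silent among the 6 were linc-41, linc-21, linc-45 and linc-17. Fewer cells of a type and less RNA per cell cannot be told apart in these whole-animal samples.

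**Figure D4:**
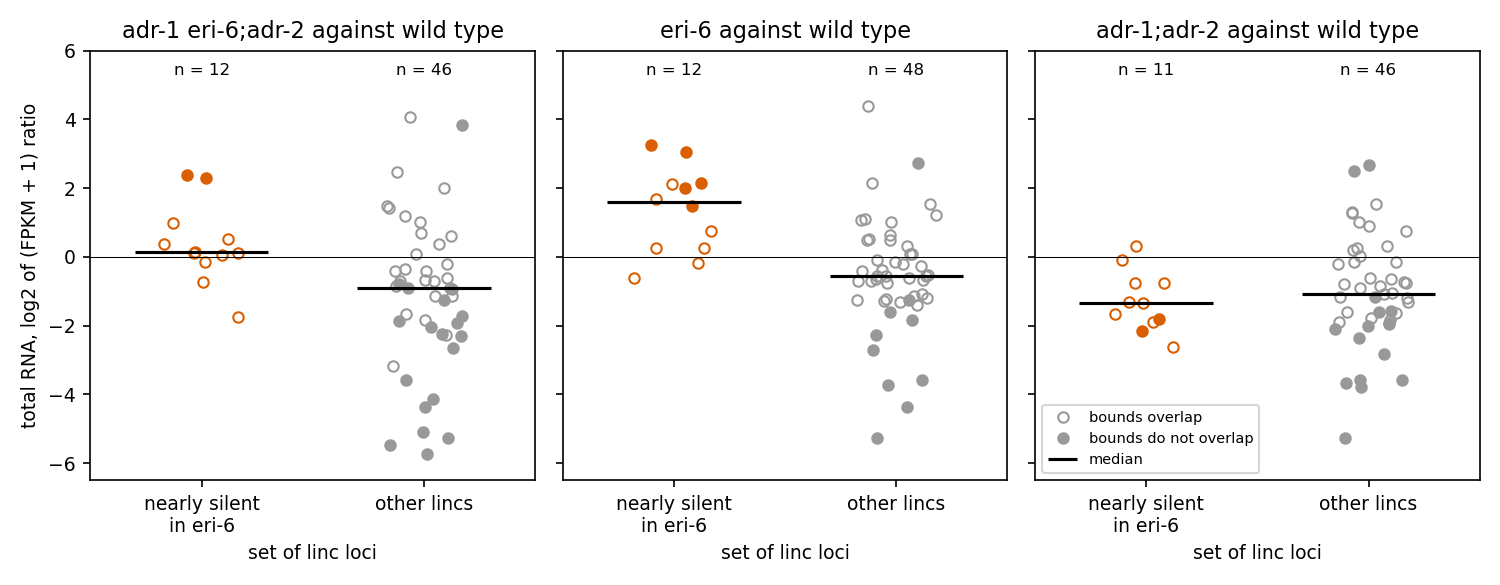
Log2 ratio of total RNA (FPKM plus 1) to wild type for the nearly silent lincs and the other lincs of at least 1 FPKM, in adr-1 eri-6;adr-2, eri-6 and adr-1;adr-2; filled points have bounds that do not overlap wild type, open points do, and lines are medians. The nearly silent lincs have a median of 1.58 in eri-6, 0.13 in the triple mutant and −1.34 in adr-1;adr-2.

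The 5 lincs with the most total RNA in wild type are described next. They were chosen for a high wild-type value, in the column with the largest FPKM sum, so lower values in the mutants are favoured by the choice and support nothing. At linc-169 the values were 26.4 FPKM in adr-1 eri-6;adr-2, 56.2 FPKM in eri-6, 32.9 FPKM in adr-1;adr-2 and 172 FPKM in wild type. At linc-53 they were 2.82 FPKM in adr-1 eri-6;adr-2, 4.07 FPKM in eri-6, 3.87 FPKM in adr-1;adr-2 and 65.5 FPKM in wild type, and at linc-29 7.65, 16.8, 9.004 and 41.8 FPKM in the same order. For linc-33, a span of 125 bp inside lev-8, and for linc-131 the triple mutant was listed at 0. Their other values were 7.11 and 11.3 FPKM in eri-6, 3.18 and 10.3 FPKM in adr-1;adr-2, and 52.3 and 43.3 FPKM in wild type. All 5 had bounds outside those of wild type in each mutant genotype.

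Other lincs with large differences were listed at 0 in a genotype, which can be a failed estimate, so no fold is given. The deposited status was OK for every linc in each genotype. Annotated spans were 125 bp for linc-78, 151 bp for linc-27, 157 bp for linc-28 and 163 bp for linc-71. The others named in these comparisons span at least 204 bp. In eri-6, linc-118, linc-78 and linc-23 were listed at 0, against 37.5, 19.8 and 11.01 FPKM in wild type, and linc-32 had 5.61 FPKM against a listed 0 in wild type. In adr-1;adr-2, linc-118, linc-23 and linc-71 were listed at 0, the last against 10.97 FPKM in wild type. The 2 higher lincs there were linc-1 at 4.67 FPKM and linc-28 at 5.38 FPKM, both listed at 0 in wild type. In adr-1 eri-6;adr-2, linc-118, linc-27 and linc-78 were listed at 0, with linc-27 at 33.2 FPKM in wild type, and the third higher linc was linc-28 at 13.2 FPKM. Wild type held 64 genes listed at 0 that had at least 5 FPKM in the other 3 genotypes, against 34 such genes for adr-1 eri-6;adr-2, 10 for eri-6 and 10 for adr-1;adr-2. Marker genes of cell types also moved in total RNA. The FPKM sum over the 14 sperm markers measured was 165 in adr-1 eri-6;adr-2, 147 in eri-6, 149 in adr-1;adr-2, against 51.5 in wild type. Over 10 germline and oocyte markers it was 450 in adr-1 eri-6;adr-2, 247 in eri-6, 566 in adr-1;adr-2, against 188 in wild type. Over 6 intestine markers it was 541 in adr-1 eri-6;adr-2, 674 in eri-6, 1100 in adr-1;adr-2, against 1570 in wild type. Over 5 neuron markers the sum lay between 96.2 and 122. No marker was at 0 except 1 sperm marker in wild type. The part of these shifts in the linc values was not tested.

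The ERGO-1 targets and pathway genes were set beside the lincs. Small RNA of 17 of the 23 ERGO-1 targets was 4-fold lower in eri-6 and of none higher, with a median log2 fold of −6.25. In adr-1;adr-2 none of the 23 was called. The 4-fold shares of all genes were 0.672% lower and 0.0984% higher in eri-6, and 0.0751% lower and 0.617% higher in adr-1;adr-2. In total RNA, 7 of 21 targets were higher and 3 lower in eri-6, none of 20 was higher and 6 were lower in adr-1;adr-2, and 3 of 21 were higher and 4 lower in adr-1 eri-6;adr-2. Of 18 pathway factors (the Argonautes, polymerases, nucleases and helicases of this branch and of its secondary siRNAs), 5 were higher and 1 lower in eri-6, 14 were higher and none lower in adr-1;adr-2, and 13 were higher and 1 lower in adr-1 eri-6;adr-2. None of the 24 factors had 4-fold different small RNA in either mutant.

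Polyadenylated transcripts of the nearly silent lincs were read in the triple mutant and wild type on control RNAi, with 1 library each and no test. Loci of at least 1 FPKM in either library were compared, and a 4-fold gap in FPKM plus 1 was taken as the call. Of 47 lincs measured, 8 (17%) were higher and 1 (2.13%) lower in the triple mutant, against 3.48% and 1.76% of 12495 genes. In the same libraries 8 of the 12 sperm markers measured were 4-fold higher in the triple mutant, with a median log2 ratio of 2.15, while none of the germline, intestine or neuron markers was called. The part of this shift in the linc values was not tested. The 8 included 3 nearly silent lincs. For linc-17 the values were 32.5 FPKM in adr-1 eri-6;adr-2 and 0.482 FPKM in wild type, for linc-12 104.3 FPKM and 4.16 FPKM, and for linc-68 10.2 FPKM and 1.41 FPKM. In all, 11 of the 12 nearly silent lincs had the higher value in adr-1 eri-6;adr-2, linc-61 being the exception at 3.75 FPKM against 7.06 FPKM in wild type. Their median log2 ratio was 1.496, beside −0.24 over the other 35 lincs and −0.08 over all genes. Below the 4-fold limit, linc-21 had 54.1 FPKM in adr-1 eri-6;adr-2 against 16.1 FPKM in wild type, and linc-45 had 5.67 FPKM against 0.928 FPKM. In total RNA of the triple mutant against wild type, linc-17 was called higher. There linc-12, linc-68, linc-61, linc-21 and linc-45 were not called.

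The other 5 higher lincs were not among the nearly silent. They include linc-16, at 20.0 FPKM in adr-1 eri-6;adr-2 against 4.06 FPKM in wild type. The others were listed at 0 in wild type, and their values in adr-1 eri-6;adr-2 were 7.10 FPKM for linc-37, 4.67 FPKM for linc-38, 4.31 FPKM for linc-64 and 3.57 FPKM for linc-26, the neighbour of linc-41. The lower linc was linc-28, listed at 0 in adr-1 eri-6;adr-2 against 13.4 FPKM in wild type. That is the opposite of its total RNA values, in which wild type was listed at 0, so the direction at linc-28 differed between the assays.

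**Figure D5:**
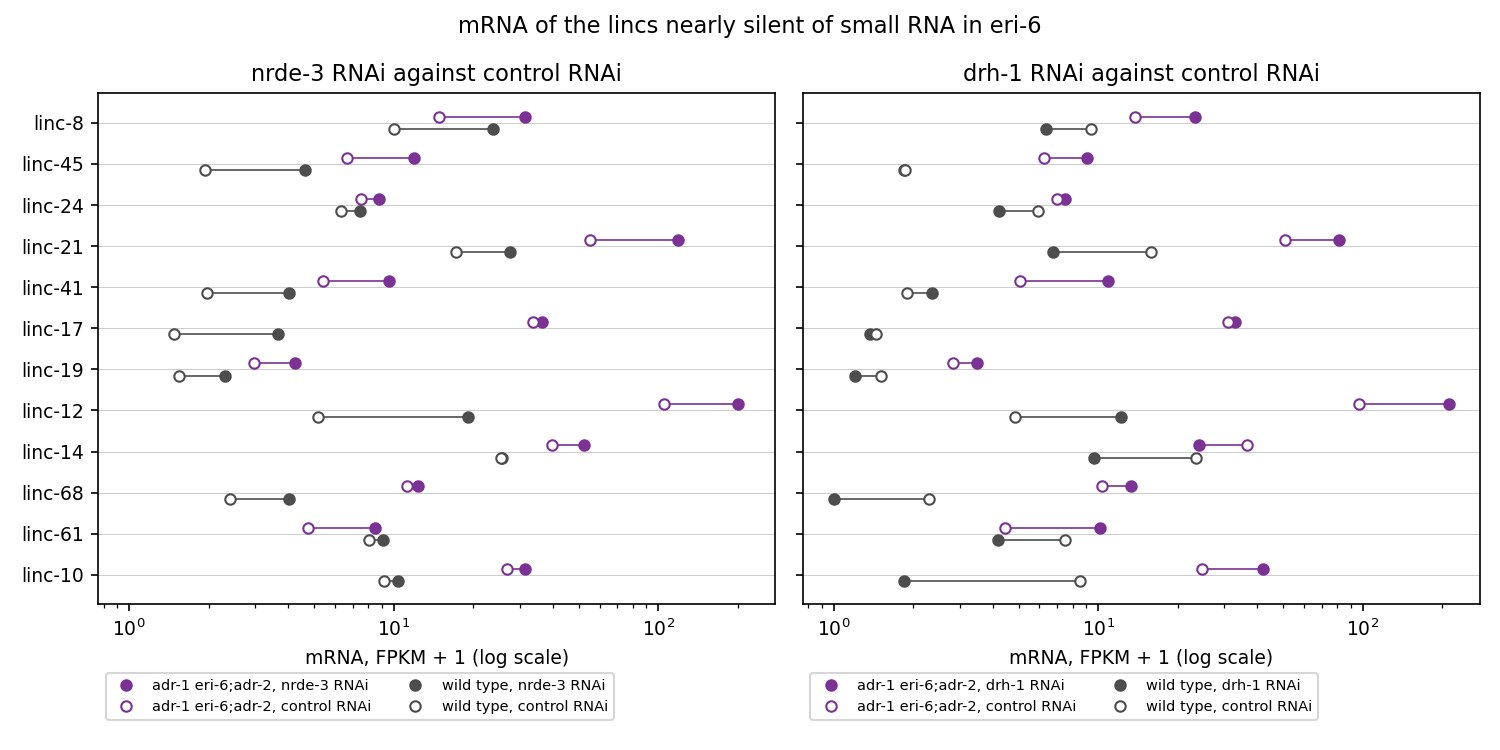
Polyadenylated RNA of the 12 nearly silent lincs as FPKM plus 1 (log scale), with 1 library per point; filled points are nrde-3 RNAi (left) or the libraries labelled drh-1 RNAi (right), open points are control RNAi, and each panel has its own scaling. The control libraries are the same in both panels. On nrde-3 RNAi all 12 lie above control RNAi in both genotypes. On drh-1 RNAi 11 lie above control in adr-1 eri-6;adr-2 and most lie below it in wild type.

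On nrde-3 RNAi the nearly silent lincs had higher values than on control RNAi in both genotypes, by less than 4-fold. In the triple mutant all 12 were above control, with a median log2 ratio of 0.67, beside 0.53 over the other 39 lincs measured and 0.11 over all genes. In wild type all 12 were above control as well, with a median of 0.71, beside 0.22 over the other 39 and −0.06 over all genes. The gene nrde-3 itself was little lower in that single wild-type library, at 5.26 FPKM against 5.76 FPKM on control RNAi. For linc-12 the values were 199 FPKM on nrde-3 RNAi and 104.3 FPKM on control RNAi in adr-1 eri-6;adr-2, and 18.0 FPKM and 4.16 FPKM in wild type. For linc-21 they were 118 FPKM and 54.1 FPKM in adr-1 eri-6;adr-2, and 26.4 FPKM and 16.1 FPKM in wild type. For linc-8 they were 30.4 FPKM and 13.8 FPKM in adr-1 eri-6;adr-2, and 22.6 FPKM and 9.06 FPKM in wild type. Wild type on nrde-3 RNAi stayed below the triple mutant on control RNAi at linc-12 and linc-21, and lay above it at linc-8. The control libraries are shared with the comparison of the genotypes and with the drh-1 RNAi comparisons.

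By the 4-fold rule, 3 of 51 lincs (5.88%) were higher and 1 (1.96%) lower on nrde-3 RNAi in the triple mutant, against 1.19% and 1.85% of 12488 genes. Higher was linc-33, at 67.0 FPKM on nrde-3 RNAi against 5.92 FPKM on control RNAi. Also higher were linc-58 at 5.26 FPKM and linc-80 at 4.88 FPKM, both listed at 0 on control RNAi. The lower one was linc-32, listed at 0 on nrde-3 RNAi against 37.6 FPKM. In wild type none of 51 lincs was 4-fold higher on FPKM plus 1, against 1.45% of 11909 genes. With 0.1 added in place of 1, 9 lincs were higher and 2 lower, and at 2-fold 13 were higher and 3 lower. The shares of all genes at these 2 settings are not given here, and the 1.45% is for the 4-fold rule on FPKM plus 1 only. The lower lincs by the rule on FPKM plus 1, linc-32 and linc-28 (3.92%, against 1.21%), were listed at 0 on nrde-3 RNAi, against 13.7 FPKM and 13.4 FPKM on control RNAi.

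In the libraries labelled drh-1 RNAi, 11 of the 12 nearly silent lincs were above control RNAi in the triple mutant, with a median log2 ratio of 0.61, beside 0.34 over the other 34 lincs and 0.00 over all genes. The exception was linc-14, at 23.0 FPKM on drh-1 RNAi against 35.5 FPKM on control RNAi. In wild type, 2 of the 9 nearly silent lincs measured were above control, with a median of −0.84, beside −0.73 over the other 32 and −0.19 over all genes. These 2 were linc-12, at 11.2 FPKM on drh-1 RNAi against 3.84 FPKM on control RNAi, and linc-41, at 1.35 FPKM against 0.897 FPKM. In the triple mutant, linc-12 had 211 FPKM on drh-1 RNAi against 95.8 FPKM on control RNAi. The control libraries are the same as in the nrde-3 comparisons, so the drh-1 and nrde-3 ratios are not independent. The gene nrde-3 was itself lower than control in the libraries labelled drh-1 RNAi, and its part in these ratios was not tested.

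By the 4-fold rule, 3 of 46 lincs (6.52%) were higher on drh-1 RNAi in the triple mutant, against 1.17% of 12138 genes, and 3 (6.52%) were lower, against 3.22%. The higher ones were linc-26, at 23.7 FPKM on drh-1 RNAi against 3.29 FPKM on control RNAi, and linc-50 at 3.28 FPKM and linc-170 at 3.02 FPKM, both listed at 0 on control RNAi. Listed at 0 on drh-1 RNAi were linc-32, linc-53 and linc-33, against 34.5, 12.03 and 5.45 FPKM on control RNAi. In wild type none of 41 lincs was higher, against 1.15% of 11589 genes, and 4 (9.76%) were lower, against 1.27%. Of the 4 lower lincs, linc-10 had 0.842 FPKM on drh-1 RNAi against 7.56 FPKM on control RNAi, and linc-32, linc-28 and linc-33 were listed at 0 on drh-1 RNAi. With 0.1 added in place of 1, 3 lincs were higher and 7 lower, and the shares of all genes at that setting are not given here.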

How the data were processed

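For small RNA the authors deposited a normalised signal for each gene in each library. Dividing by 1 factor per library returned whole reads for 100% of values, within 0.01 read. For total RNA and mRNA the authors deposited FPKM, pooled over both replicates in total RNA, with 1 mRNA table per RNAi target, each scaled on its own. The bounds beside the total RNA FPKM are the authors' deposited values. Per the submitters' processing notes, the tools included Cuffdiff, Cufflinks and TopHat2, and featureCounts, BWA, Trim Galore and DESeq2, with build WBcel235. Versions and settings were not given in the sources used here. Per the labels' protocols, small RNA was selected by size and its 5′ polyphosphates were removed, which lets siRNAs with a 5′ triphosphate be cloned. The values do not separate lengths or strands.

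The members, gene lists and rules were chosen with earlier results of these data known, and the fit of eri-6 against adr-1;adr-2 and the total RNA comparisons of the triple mutant with the other mutants were added after seeing the data. Named lincs were all that were nearly silent or 4-fold apart in small RNA, those of the triple mutant selection, the 5 highest in wild-type small RNA and total RNA, and the 5 largest folds each way among called lincs per FPKM comparison. In addition linc-16, linc-24's piRNA gene and linc-26 were named for their place beside these, after their values were seen. Spans and overlaps came from RefSeq (WBcel235), which matched all 142 lincs, 115 of them at the locus given in the FPKM tables. Of the other tables' loci, 26 were wider than the annotated linc. FPKM entries whose gene identifier occurred more than once were left out, 321 in total RNA.

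Genes averaging 10 or more in a small RNA table were fitted with limma 3.58.1 (trend, in R 4.3.3) on log2(value + 1), with Benjamini-Hochberg adjustment at 0.05. The joint fit used TMM-scaled recovered reads. Alternatives on recovered reads used edgeR 4.0.16 and DESeq2 1.42.0. Tables and figures were made in Python 3.11.15 (matplotlib 3.10.9, numpy 2.4.6, pandas 2.3.3). The fits were also run on simulated counts with known changes, at a fixed dispersion. The outcome is not given here, and that setting need not match the spread of groups that mix strains. The replicate numbers were not used as a block, since the labels do not say that they pair libraries.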

Additional observations from a re-analysis of the deposited data

Results flagged for a closer look

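Small RNA of 5 lincs differed between eri-6 and adr-1;adr-2 by the joint limma fit, with log2 values for eri-6 minus adr-1;adr-2 of −8.33 for linc-41, −7.83 for linc-12, −7.75 for linc-45, −7.59 for linc-21 and −6.53 for linc-19. At 2 further lincs both eri-6 libraries lay below both wild-type libraries while both adr-1;adr-2 libraries lay above them. Neither passed the joint limma fit of eri-6 against adr-1;adr-2, with adjusted p of 0.285 for linc-157 and 0.428 for linc-42. These were linc-157, at −3.64 for eri-6 minus adr-1;adr-2 in the joint fit, and linc-42, at −3.42, with 9.24 and 13.9 normalised reads in eri-6 against 77.6 and 76.1 in wild type, and 90.5 and 201 in adr-1;adr-2 against 82.0 and 84.9 in wild type. Of the 5 above, linc-12 also lay below wild type in both eri-6 libraries and above it in both adr-1;adr-2 libraries, with 882 and 1655 in adr-1;adr-2 against 535 and 699 in wild type.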

How the results depend on the processing

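The number of nearly silent lincs was 12 without any 1 library and with TMM scaling, 13 at a limit of 1/8 and 8 at 1/32, and 12 or 10 with a wild-type minimum of 10 or 100. The limma count for eri-6 against wild type was 0, and became 8 with a mean of at least 50, 12 with DESeq2, 10 with a replicate block and 7 to 9 without 1 library. With the block, the eri-6 count against adr-1;adr-2 was 10 instead of 5, and the 4-fold count of lincs higher in eri-6 was 1 instead of 0. The labels do not say that numbers pair libraries, and same-numbered libraries deviated together with correlations of 0.679 (eri-6 and wild type), 0.597 (adr-1;adr-2 and wild type) and 0.702 (eri-6 and adr-1;adr-2). Lincs higher in eri-6 numbered 2 at 2-fold, 1 with TMM scaling and 0 to 1 without 1 library. In adr-1;adr-2 against wild type, lower lincs numbered 2 at 2-fold and 0 to 1 without 1 library, and higher lincs 2 at 2-fold, 0 at 8-fold and 1 to 4 without 1 library. TMM scaling raised the median of all genes by 0.13 (eri-6) and 0.12 (adr-1;adr-2) on the log2 scale. In total RNA, lincs higher in adr-1;adr-2 numbered 1 at 5 FPKM and 0 with spans of at least 200 bp and a wild-type value above 0. In mRNA the counts for FPKM + 0.1 and for 2-fold were 2 and 6 lower in the triple mutant (16 higher at 2-fold). They were 5 and 8 higher on drh-1 RNAi and, on nrde-3 RNAi, 2 and 3 lower and 5 and 13 higher in the triple mutant. In wild type they were 7 and 14 lower and 3 and 4 higher on drh-1 RNAi, and 9 and 13 higher and 2 and 3 lower on nrde-3 RNAi. The cause of these moves was not tested, and the shares of all genes at these settings are not given here. The balance of higher and lower lincs turned on nrde-3 RNAi in wild type, with 0 higher and 2 lower as reported. Of the other recomputed counts, 82 stayed within 1.5 times the value reported. With 2 small RNA libraries per genotype and 1 mRNA library per condition, small differences could not be resolved.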

Other observations

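A further 28 loci named as lincs in the reference gene table have no entry in the FPKM tables, so they fall outside the set above and have small RNA values only. Several were low in eri-6. The highest was linc-22, with 860 and 1712 normalised reads in eri-6 against 85158 and 85268 in wild type, more wild-type small RNA than any linc described above. Its adr-1;adr-2 values were 50719 and 178015 in that table's own scaling. For linc-59 the values were 4.20 and 3.47 in eri-6 against 1270 and 678 in wild type, for linc-15 4.20 and 3.47 against 574 and 217, and for linc-25 0 and 2.31 against 228 and 348. For linc-111 they were 0.84 and 0 in eri-6 against 70.0 and 87.6 in wild type. By contrast linc-154 had 17324 and 11737 in eri-6 against 9986 and 7339 in wild type, and linc-6 had 2730 and 2709 against 2715 and 2930. The linc-66 locus differed between replicates in every genotype, with 69.7 and 9.24 normalised reads in eri-6, with 105 and 3.41 for adr-1;adr-2, and 316 and 6.34 in wild type.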
